A study of Sus scrofa with 6 samples.

Results

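Small leucine-rich proteoglycans (SLRPs) were followed in RNA from the abdominal aorta of Wuzhishan miniature pigs. The set was defined by name as DCN, LUM, BGN, FMOD, OGN, PRELP, ASPN, OMD and PODN, and the rows of the deposited gene table with these symbols were taken. Rows were found for 8 of the 9 genes among 30477 genes in all, and all 8 passed the filter on low values. No row carried the symbol PODN. The identifier that a reference name table pairs with PODN carries the symbol SCP2 in the deposited table, and SCP2 is the neighbour of PODN in the RefSeq annotation of Sscrofa11.1. Its values were therefore not read as PODN, and podocan was not analysed here.

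The animals with libraries were male pigs in 2 groups of 3, with 1 library per pig. The study fed more pigs per diet than these, and how the 3 of each group were chosen is not stated. The NC group received normal chow for 6 months, and the HFCF group received for the same time a diet rich in fat, cholesterol and fructose, made from chow with added shortening, egg yolk powder, cholesterol and fructose. The sample labels give an age of 3 to 4 months and the methods an older age at purchase. Bulk aortic tissue was used, so all layers of the wall contributed to each value.

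SLRPs are secreted proteins whose core is a curved stack of leucine-rich repeats. Most of them bind fibrillar collagen through this core and regulate the width and spacing of the fibrils, and several carry glycosaminoglycan chains. Decorin and biglycan carry chondroitin or dermatan sulfate chains, can bind TGF-beta, and in the arterial wall are known for holding apolipoprotein B-containing lipoproteins through these chains. Together with asporin they form class I. Lumican, fibromodulin, PRELP and osteomodulin form class II, in which lumican and fibromodulin can carry keratan sulfate, and osteoglycin (also called mimecan) belongs to class III.

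Levels were given by the authors as FPKM, the number of fragments scaled to exon length and to the mapped reads of the library, which allows levels of different genes to be compared. BGN, which encodes biglycan, had the highest level of the 8 genes in every library, between 1139 and 2233 FPKM, and ranked between place 13 and place 39 among all genes. FMOD and DCN followed, and their order was not fixed, because FMOD was above DCN in 4 of the 6 libraries. PRELP came next, below DCN in 6 of 6 libraries. LUM, OGN, ASPN and OMD formed the lower part of the order, with LUM below PRELP in 5 of 6 libraries, OGN below LUM in 6 of 6, ASPN below OGN in 5 of 6 and OMD below ASPN in 6 of 6. The exceptions were the first HFCF pig, in which LUM was higher than PRELP, and the third NC pig, in which ASPN was higher than OGN.

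**Figure D1:**
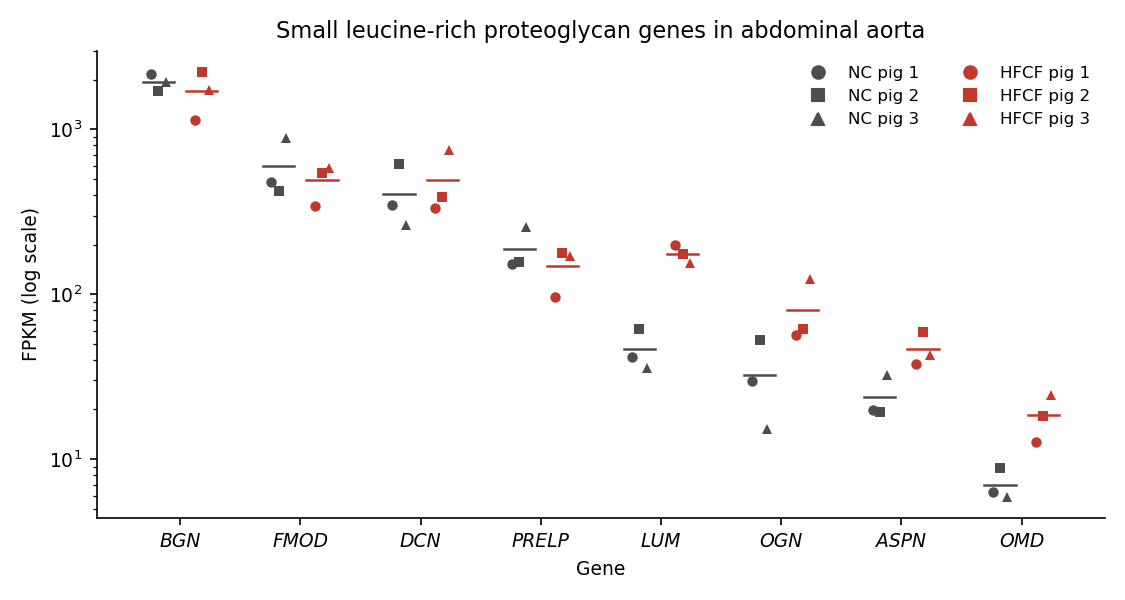
FPKM (log axis) of the 8 SLRP genes in each pig, with NC pigs in grey, HFCF pigs in red, a symbol for each pig number and a line at the mean of each group of 3. LUM, OGN, ASPN and OMD have all HFCF values above all NC values, while the values of BGN, FMOD, DCN and PRELP overlap.

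The libraries differed between the diets as a whole. The FPKM values of all genes summed to between 272207 and 287141 in the NC group and to between 330222 and 338690.2 in the HFCF group. Relative depths, taken from the steps between low FPKM values, lay between 1 and 1.37, the highest in the third NC pig. On the scale used for testing, log2(FPKM + 0.1), the median difference between HFCF and NC pigs over all 15384 tested genes was 0.32, so the changes below are also given relative to it. At the scalings tried besides the deposited values this median was -0.00 (median-ratio), -0.07 (quantile) and 0.09 (TPM). The diet difference was called at an adjusted p under 0.05 (limma, Benjamini-Hochberg over all tested genes) in 28.9% of these genes, 22.8% higher and 6.16% lower in the HFCF group. Of the called genes 78.7% were higher in the HFCF group with the deposited values, 50.8% with median-ratio scaling, 59.3% as TPM and 49.5% with quantile normalization. The limma p-values set the diet difference against the spread between the 3 pigs within each group. Limma pools this spread over both diets and adjusts it with the help of all tested genes. The smooth muscle marker ACTA2 was high in all libraries, between 3359 and 9145 FPKM.

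The HFCF group showed higher expression of 3 of the 8 SLRP genes than the NC group, namely LUM, OMD and ASPN, and none was called lower. At an unadjusted p under 0.05 (limma) 4 were higher and 0 lower. The calls are 37.5% of the 8 genes, beside 22.8% of all genes called higher, and counts of this size do not set the family apart from other genes. The median log2 fold change of the 8 genes was 0.62, which is 0.29 above that of all genes. The study selected genes by a ratio of group means above 2 or below 0.5 together with an unadjusted p under 0.05. LUM, OMD and OGN met these limits with higher values in the HFCF group, beside 25.5% of all genes in either direction, 20.7% higher and 4.82% lower. The groups did not overlap in 4 genes, LUM, OMD, ASPN and OGN, each time with the HFCF pigs above, and such a gap was present in 48.2% of all tested genes in either direction and in 36.1% with the HFCF pigs above. LUM, OMD, ASPN and OGN had positive log2 fold changes under all 3 other scalings. Because the tissue was sampled in bulk, a change in the number of cells of a type and a change in RNA per cell cannot be told apart in any of these differences. A split into 4 genes without overlap and 4 with overlap is close to that of all tested genes. It does not set the family apart. The genes in which the groups overlapped were BGN, FMOD, DCN and PRELP. Within the NC group these last genes had higher mean levels than LUM, OMD, ASPN and OGN.

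LUM (ENSSSCG00000000916) encodes lumican, a keratan sulfate proteoglycan that binds collagen fibrils. It was 41.4, 61.8 and 35.6 FPKM in the NC pigs and 200.2, 175 and 154 FPKM in the HFCF pigs. Every HFCF pig was far above every NC pig, and the first HFCF pig had the highest level. The group means were 46.3 ± 13.8 and 176 ± 23.2 FPKM (SD, n = 3 each), a ratio of 3.81. The log2 fold change was 1.96 (standard error 0.23, adjusted p = 0.00215, limma), 1.64 above the median of all genes. LUM was called in each of the 15 alternatives of processing, where its log2 fold change lay between 1.60 and 2.19 and its adjusted p from limma between 0.00193 and 0.0152.

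OMD (ENSSSCG00000008073) encodes osteomodulin, also known as osteoadherin, an acidic SLRP first known from bone matrix. Its levels were 6.27, 8.79 and 5.91 FPKM in the NC pigs and 12.7, 18.1 and 24.3 FPKM in the HFCF pigs. The lowest HFCF value lay above the highest NC value, although OMD stayed the least abundant of the 8 genes in both groups. The ratio of means was 2.63, and the log2 fold change was 1.36 (standard error 0.27, adjusted p = 0.0123, limma), 1.04 above the median of all genes. Its call was lost in 1 of the 15 alternatives, without the first NC pig (adjusted p = 0.052, limma).

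ASPN (ENSSSCG00000008072) encodes asporin, a class I SLRP that, unlike decorin and biglycan, is not known as a carrier of glycosaminoglycan chains and can bind TGF-beta. Its level was 19.98, 19.4 and 32.5 FPKM in the NC pigs and 37.7, 58.9 and 42.6 FPKM in the HFCF pigs. The third NC pig came close to the first HFCF pig, without overlap. The ratio of means was 1.94 and so stayed under the fold threshold of the study, and the log2 fold change was 0.97 (standard error 0.26, adjusted p = 0.0309, limma), 0.65 above the median of all genes. The call of ASPN held in only 6 of the 15 alternatives. It was lost with median-ratio scaling (0.61, adjusted p = 0.119, limma), quantile normalization (0.83, adjusted p = 0.0528, limma) and rescaling to TPM (0.71, adjusted p = 0.0965, limma), and its adjusted p from limma lay between 0.0177 and 0.119 over the alternatives. It was also lost without the first or the second NC pig (adjusted p = 0.108 and 0.0942, limma) and without the second or the third HFCF pig (adjusted p = 0.0868 and 0.0591, limma).

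OGN (ENSSSCG00000034607) encodes osteoglycin, a class III SLRP found in the matrix of the vessel wall. It was 29.8, 52.5 and 15.3 FPKM in the NC pigs and 56.5, 61.6 and 124 FPKM in the HFCF pigs. No values overlapped, but the second NC pig and the first HFCF pig lay close together and the spread was wide, with an SD of log2 values of 0.89 in the NC pigs, the widest of the 8 genes, and of 0.62 in the HFCF pigs. The ratio of means was 2.48, and the log2 fold change of 1.39 (standard error 0.48, 95% interval 0.25 to 2.53) was not called by limma (adjusted p = 0.0696). Without the second NC pig the log2 fold change was 1.82 and the adjusted p 0.0391 (limma), the only alternative in which it was called.

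**Figure D2:**
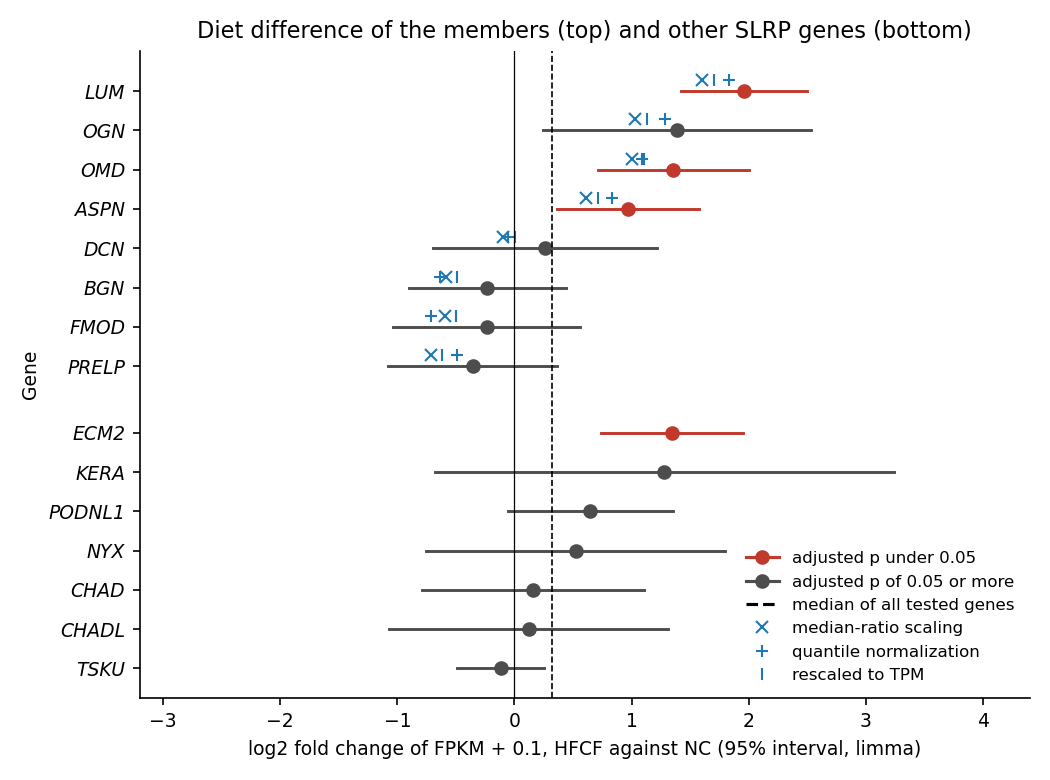
Log2 fold change of FPKM + 0.1 (HFCF against NC, dots with 95% intervals from limma) for the 8 SLRP genes in the upper block and for 7 other SLRP genes in the lower block, in red where the adjusted p is under 0.05. Blue marks give the 8 genes under 3 other scalings and the dashed line the median of all tested genes at 0.32; LUM and OMD keep positive values between 1.003 and 1.83 under these scalings, while BGN, FMOD and PRELP stay below 0 and DCN lies close to 0.

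The most abundant members were not called in either direction. BGN (ENSSSCG00000012766) was 2160.3, 1719.5 and 1936 FPKM in the NC pigs and 1139, 2233 and 1745 FPKM in the HFCF pigs. The first HFCF pig had the lowest and the second the highest value of all 6, so the groups overlapped completely. The log2 fold change was -0.23 (95% interval -0.90 to 0.44, adjusted p = 0.57, limma), which is -0.55 relative to the median of all genes. Without the first HFCF pig the log2 fold change of BGN was 0.033.

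DCN (ENSSSCG00000000915), which encodes decorin, was 347, 614 and 264 FPKM in the NC pigs and 333, 387 and 753 FPKM in the HFCF pigs. The second NC pig and the third HFCF pig stood above the other 4 animals. The log2 fold change was 0.26 (95% interval -0.69 to 1.22, adjusted p = 0.657, limma), and its sign depended on the scaling and on the pigs included. It was -0.094 with median-ratio scaling, -0.057 with quantile normalization and 0.0025 as TPM. Without the third HFCF pig it was -0.093. The interval for DCN covers changes in both directions.

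FMOD (ENSSSCG00000015270) encodes fibromodulin, which competes with lumican for a site on collagen. It was 477, 423 and 890.1 FPKM in the NC pigs and 344, 543 and 584 FPKM in the HFCF pigs. The third NC pig was the highest of all and the first HFCF pig the lowest. The log2 fold change was -0.24 (95% interval -1.03 to 0.56, adjusted p = 0.625, limma), and it was 0.090 without the third NC pig.

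PRELP (ENSSSCG00000015271) encodes a basic SLRP that can link collagen to the heparan sulfate of basement membranes. It was 153, 156 and 255 FPKM in the NC pigs and 95.8, 177 and 170.4 FPKM in the HFCF pigs, with the same pigs at the top and bottom as for FMOD. The log2 fold change was -0.36 (95% interval -1.08 to 0.36, adjusted p = 0.412, limma). An uncharacterized locus overlaps the span of PRELP in the RefSeq annotation of Sscrofa11.1, and reads of the pair cannot be told apart here.

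The sum of the 8 genes did not separate the diets. It was 3234, 3055 and 3434 FPKM in the NC pigs and 2219.8, 3654 and 3598 FPKM in the HFCF pigs, and the first HFCF pig was the lowest. As a part of all FPKM in a library this was 1.06% to 1.26% in the NC group and 0.655% to 1.09% in the HFCF group. The composition of the sum, which does not depend on the scaling between libraries, did differ. LUM, OGN, ASPN and OMD together made up 3.01%, 4.67% and 2.60% of the SLRP sum for the NC diet and 13.8%, 8.57% and 9.59% for the HFCF diet. LUM alone was 1.45% ± 0.51 of the sum in the NC group and 6.03% ± 2.61 in the HFCF group (SD, n = 3 each). BGN held between 56.3% and 66.8% of the sum in the NC pigs and between 48.5% and 61.1% in the HFCF pigs, which overlapped. These 4 genes were grouped after their values had been seen, and their shares are given without a test.

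In the RefSeq annotation of Sscrofa11.1, most of these genes lie beside each other. OGN, OMD, ASPN and ECM2, a related gene of the family, are consecutive neighbours, DCN is followed by LUM, KERA and EPYC, and FMOD is followed by PRELP and OPTC. BGN lies alone. In the first group, ECM2 (ENSSSCG00000028549) was called higher like OMD and ASPN. Its values were 13.1, 22.0 and 23.7 FPKM in the NC pigs and 39.5, 52.5 and 54.3 FPKM in the HFCF pigs, without overlap (log2 fold change 1.34, standard error 0.26, adjusted p = 0.0103, limma). All 4 genes of this neighbourhood thus had HFCF values above all NC values, as had 36.1% of all tested genes, although OGN was not called. Neither gene of the FMOD and PRELP pair was called. The span of CENPP, a gene for a centromere protein, overlaps OGN, OMD, ASPN and ECM2 in that annotation, and the strand of the reads is not given in the sources used here. CENPP itself was between 0.857 and 0.9901 FPKM in NC and between 1.2 and 1.94 FPKM in HFCF pigs, also without overlap (log2 fold change 0.73, adjusted p = 0.0771, limma).

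LUM was called while its neighbour DCN was not. Within a library the ratio of LUM to DCN was 0.119, 0.101 and 0.135 for the NC diet and 0.602, 0.451 and 0.204 for the HFCF diet. The ratio was higher in 3 of 3 HFCF pigs than in any NC pig, and the third HFCF pig, which had the most DCN, was the nearest to the NC group. On the log2 scale the mean ratio was 1.70 higher in the HFCF group, with p = 0.1 in an exact two-sided permutation test, the smallest p that 3 pigs against 3 can give. Of the 7 genes compared with DCN in this way, LUM, OGN and OMD did not overlap between the groups, all with the HFCF pigs above, beside 8.19% (13.7% in either direction) of the other genes with a mean of at least 1 FPKM. DCN was chosen as the common denominator of LUM and OGN after the values had been seen. For a ratio without overlap the permutation test can give no other p, so the p for LUM adds nothing to the gap itself.

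The ratio of OGN to DCN varied little among the HFCF pigs. It was 0.0859, 0.0855 and 0.0579 for the NC diet and 0.170, 0.159 and 0.165 for the HFCF diet. The wide spread of OGN within the groups was thus shared by DCN, and the SD of the log2 ratio was 0.33 in the NC group and 0.05 in the HFCF group against 0.89 and 0.62 for OGN alone. The mean log2 ratio was 1.13 higher in the HFCF group (p = 0.1, exact two-sided permutation test). This ratio was chosen after its values were seen, and without overlap the test can give no other p, so the p adds no support. The ratio of OMD to DCN was 0.0181, 0.0143 and 0.0224 for the NC diet and 0.0382, 0.0469 and 0.0323 for the HFCF diet, again without overlap. In contrast, the ratio of BGN to DCN was 6.23, 2.80 and 7.33 for the NC diet and 3.42, 5.77 and 2.32 for the HFCF diet, which overlapped (log2 difference -0.49, p = 0.4, exact two-sided permutation test).

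**Figure D3:**
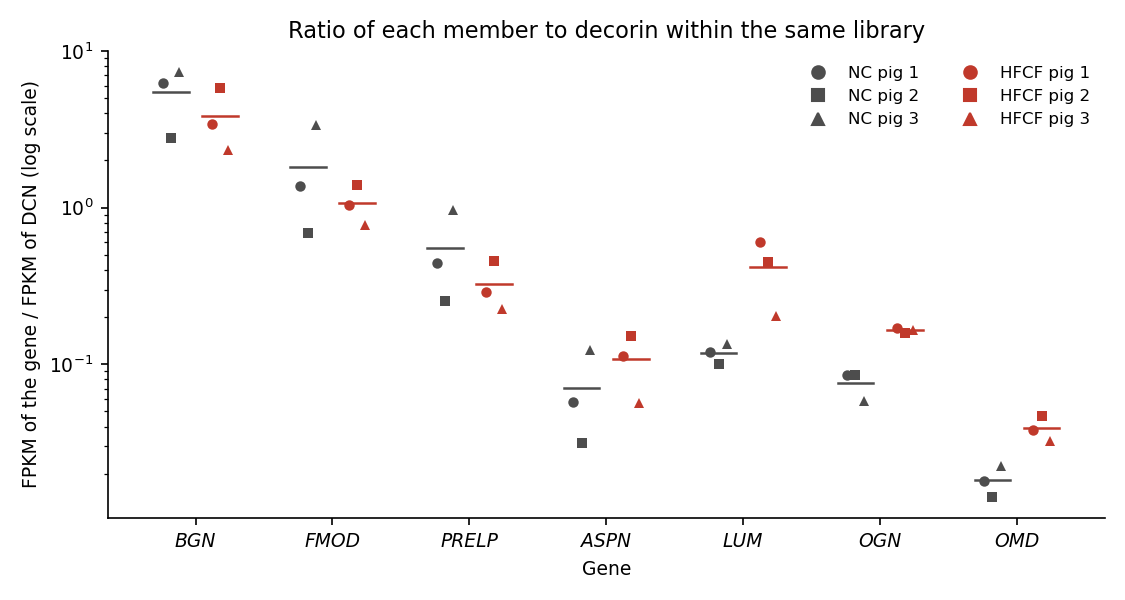
FPKM of each of 7 SLRP genes divided by the FPKM of DCN in the same library (log axis), with NC pigs in grey, HFCF pigs in red and a line at the mean of each group of 3. The ratios of LUM, OGN and OMD do not overlap between the diets, with the HFCF pigs above, and those of OGN lie between 0.159 and 0.170 in the HFCF pigs.

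Within the diet groups some of the genes varied together. DCN and OGN were high together in the second NC pig and the third HFCF pig, by 0.68 and 0.86 and by 0.71 and 0.72 above the log2 mean of their group, and OMD followed them with 0.35 and 0.45. FMOD and PRELP were high together in the third NC pig, by 0.66 and 0.48, where DCN and OGN were 0.54 and 0.91 below their group mean. In the third HFCF pig, however, FMOD and PRELP were above their group mean too, by 0.29 and 0.26. LUM was 0.46 above its group mean in the second NC pig but 0.19 below it in the third HFCF pig. BGN was highest in the first NC pig and the second HFCF pig. The ratio of PRELP to FMOD was 0.320, 0.370 and 0.287 for the NC diet and 0.278, 0.326 and 0.292 for the HFCF diet, and so moved less than either gene did. Each gene was then centred on its own mean over the 6 libraries, which keeps the diet difference in the distance. FMOD and PRELP were the closest pair of the 28 pairs, with a root mean square difference of 0.14 on the log2 scale. LUM and PRELP were the most distant, with 1.3. By the SD of the log2 ratio within the groups, FMOD and PRELP were again the closest (0.15). By that measure FMOD and OGN were the most distant (1.07), and LUM and PRELP stood at 0.71.

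**Figure D4:**
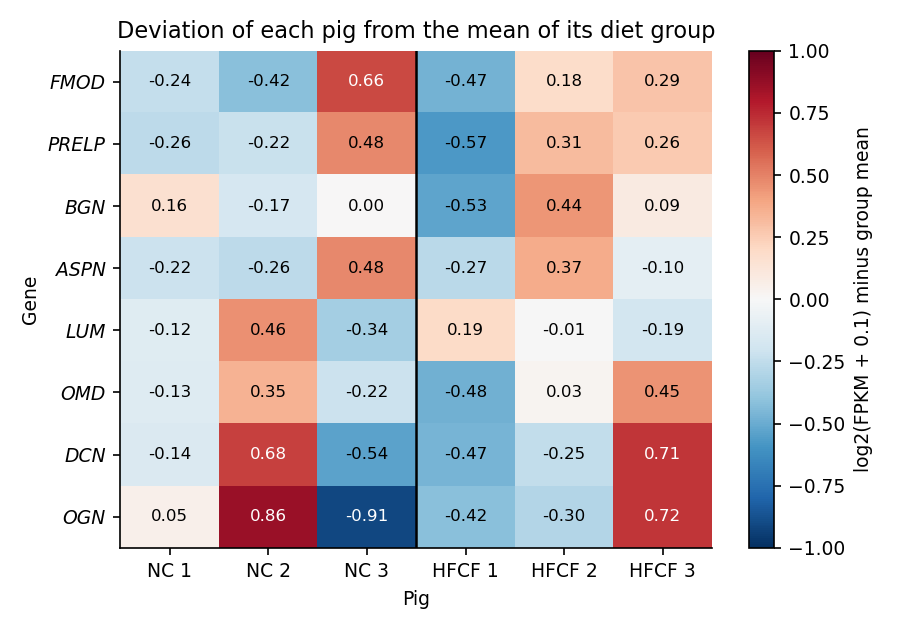
Deviation of log2(FPKM + 0.1) of each SLRP gene (rows) in each pig (columns) from the mean of its diet group of 3, in red above and blue below the mean, with the value in each cell. DCN and OGN are high in the second NC pig and the third HFCF pig, and FMOD, PRELP and ASPN in the third NC pig.

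By the root mean square difference, the nearest genes to LUM were CLIC2 (0.13), FTL (0.15) and PANK3 (0.15), of which FTL encodes the ferritin light chain. The search covered all genes with a symbol of their own and a mean of at least 1 FPKM. DCN was nearest to ABCA9 (0.15), NOL11 (0.18) and MATN4 (0.21), and OGN, with larger distances, to RSPO3 (0.25), CRABP2 (0.26) and SNORD38B (0.27). OMD was nearest to CDC42EP5 (0.10), RITA1 (0.12) and UBALD1 (0.13), and ASPN to MFRP (0.10), UBA7 (0.10) and FKBPL (0.13). BGN was nearest to TIMM17B (0.08), PPOX (0.08) and SNX21 (0.08), FMOD to CAV3 (0.08), SCARF2 (0.13) and PRELP (0.14), and PRELP to TMEM45A (0.10), ADARB1 (0.11) and CCDC8 (0.11). These distances describe 6 libraries in 2 groups and carry no test.

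Among 9 other SLRP genes, 7 were tested and only ECM2 was called. PODNL1, a relative of podocan, had mean levels of 6.17 ± 1.78 FPKM (NC) and 9.81 ± 3.33 FPKM (HFCF) (SD, n = 3 each, log2 fold change 0.65, adjusted p = 0.143, limma). CHAD (chondroadherin) and TSKU (tsukushi) were expressed at 13.2 ± 4.90 and 6.26 ± 0.60 FPKM in the NC group and were not called, with log2 fold changes of 0.16 and -0.12. KERA (keratocan), known from cornea, was under 1 FPKM except in the third HFCF pig with 4.18 FPKM, the pig with the highest DCN and OGN. EPYC was listed at 0 in all 6 libraries, and OPTC in all but the third NC pig.

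The enzymes that build glycosaminoglycan chains were represented by 29 tested genes, of which 5 were called higher and 1 lower, which is 20.7% called beside 28.9% of all genes. CHST2, a sulfotransferase that acts on N-acetylglucosamine, as in keratan sulfate, rose from 0.95 ± 0.13 to 9.69 ± 5.33 FPKM (SD, n = 3 each, log2 fold change 3.10, adjusted p = 0.0022, limma). The first HFCF pig had 15.8 FPKM of CHST2 and the other HFCF pigs 6.81 and 6.42 FPKM. CSGALNACT2, which starts chondroitin chains, rose (log2 fold change 1.65, adjusted p = 0.0132, limma), as did DSEL, a relative of dermatan sulfate epimerase, CHST12, a chondroitin 4-sulfotransferase, and B3GAT3, which completes the linker to the core protein. CHPF, a chondroitin polymerizing factor, fell from 26.7 ± 2.06 to 12.98 ± 4.66 FPKM (log2 fold change -1.11, adjusted p = 0.029, limma). DSE, the epimerase that forms dermatan sulfate, and CHST14, the dermatan 4-sulfotransferase, had log2 fold changes of 0.25 and -0.43 and were not called.

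Of the fibrillar and associated collagens that SLRPs bind, 11 genes including the crosslinking enzyme gene LOX were tested, and none of the collagen genes was called (limma), with COL5A3 alone among them at an unadjusted p under 0.05. COL1A1 had means of 1494 ± 555 (NC) and 1293 ± 394 (HFCF) FPKM, COL1A2 was 1131 ± 429 and 1061 ± 450.5 FPKM, and COL3A1 was 1904 ± 474 and 1695 ± 458 FPKM (SD, n = 3 each). Their log2 fold changes were -0.17, -0.10 and -0.18, while the log2 fold changes of LUM, OMD and ASPN were positive. LOX rose from 16.0 ± 4.32 to 28.6 ± 5.62 FPKM (log2 fold change 0.85, adjusted p = 0.0425, limma), a call that was lost in 7 alternatives, among them leaving out the first NC pig, the second NC pig, the second HFCF pig or the third HFCF pig.

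Receptors and ligands known to bind SLRPs or their fragments moved in both directions, with 6 of 26 tested genes called higher and 6 lower, which is 46.2% called beside 28.9% of all genes (22.8% higher and 6.16% lower). CD14, which was called higher, stands also among the macrophage markers below, and KDR, which was not called, among the endothelial markers. TLR4 and TLR2, which soluble biglycan can engage on macrophages, rose from 0.69 ± 0.06 to 6.56 ± 4.00 FPKM and from 1.26 ± 0.38 to 4.55 ± 1.36 FPKM (SD, n = 3 each). The purinergic receptors P2RX4 and P2RX7, linked to biglycan signalling, rose by 1.86 and 1.74 on the log2 scale (adjusted p = 0.00281 and 0.0361, limma). EGFR and IGF1R, tyrosine kinase receptors that decorin can bind, fell by 1.02 and 1.14 on the log2 scale (adjusted p = 0.032 and 0.0122, limma). The other tyrosine kinase receptors listed, MET, KDR and ERBB4, had log2 fold changes of 0.41, 0.88 and -0.80 and were not called. TGFB3 fell from 205 ± 73.0 to 47.8 ± 17.2 FPKM (SD, n = 3 each, adjusted p = 0.00741, limma), TNC, which encodes the matrix protein tenascin C, fell by 1.58 on the log2 scale, and TGFB1 was not called (log2 fold change 0.32, adjusted p = 0.432, limma).

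Among 15 tested genes for proteases that process or cleave SLRPs or other matrix proteins, 3 were called higher and 1 lower, and these 26.7% are close to the 28.9% of all genes. TLL1, a relative of the procollagen C-proteinase BMP1, rose from 0.32 ± 0.18 to 1.82 ± 1.51 FPKM (SD, n = 3 each, adjusted p = 0.0396, limma), and BMP1 itself was not called (log2 fold change 0.08). CTSS and MMP9, proteases that macrophages express, had log2 fold changes of 4.6 and 5.21 (adjusted p = 0.00153 and 0.0102, limma), with MMP9 listed at 0 in the second NC pig. ADAMTS4, which cleaves aggrecan and versican, fell by 1.59 on the log2 scale (adjusted p = 0.0232, limma).

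**Figure D5:**
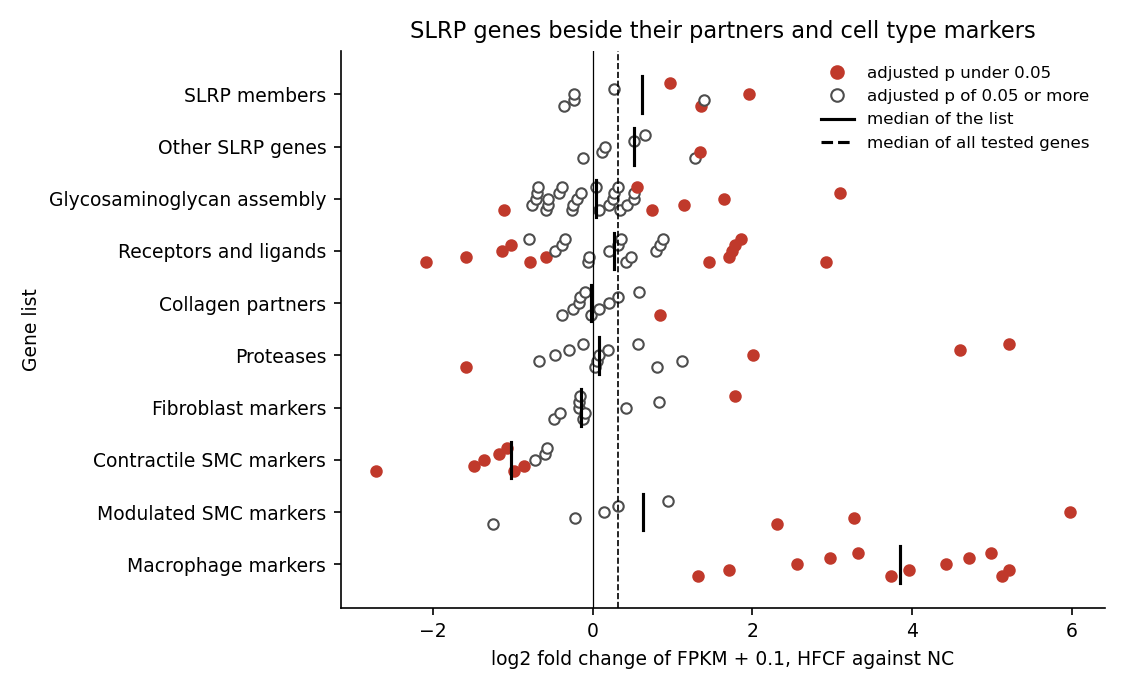
Log2 fold change of FPKM + 0.1 (HFCF against NC) of each tested gene in 10 gene lists, filled red where the adjusted p from limma is under 0.05, with a bar at the median of each list and a dashed line at the median of all tested genes (0.32); SMC stands for smooth muscle cell. All 12 macrophage markers lie at 1.31 or above, the contractile markers lie below 0, and THY1 and LOX are the called genes among the fibroblast markers and collagen partners.

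Markers of some cell types differed between the diets, most widely those of macrophages and contractile smooth muscle. All 12 macrophage markers were called higher, and their summed level was 58.8 to 70.6 FPKM in the NC pigs and 815 to 2071 FPKM in the HFCF pigs, with the first HFCF pig highest. Of 10 contractile smooth muscle markers, 7 were called lower, among them MYOCD, DES, SMTN and CNN1, and their sum was 16076 to 22885 FPKM in the NC pigs and 8084 to 12986 FPKM in the HFCF pigs. Of 10 tested fibroblast markers outside the 8 SLRP genes, THY1 was called higher and 9 were not called. Their sum over 11 markers with a row was 5050.0, 6345 and 3506 FPKM in the NC pigs and 3410.5, 4093 and 6144 FPKM in the HFCF pigs, and the second NC pig and the third HFCF pig were the highest of their own diet groups, as for DCN and OGN. COL1A1, COL1A2 and COL3A1, which also stand among the collagen partners, make up most of this sum. LAMA2 of that list was at 0 in all libraries.

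Among 8 tested markers of modulated smooth muscle or chondrocyte-like cells, SPP1, TNFRSF11B and RUNX2 were called higher, SOX9 was not called, and COL2A1 did not pass the filter on low values. At an unadjusted p under 0.05 (limma) 4 of this list were higher and 1 lower. The level summed over the 10 listed markers overlapped between the diets. This sum was 4605, 4466 and 5988 FPKM in the NC pigs and 3835, 5663 and 5157 FPKM in the HFCF pigs. Of 5 tested tendon and bone markers, SCX was called higher, and TNMD was at 0 in all libraries. Of 7 adipocyte markers PLIN4 was called lower, and of 6 T cell markers CD2 and TRAT1 were called higher. At an unadjusted p under 0.05 (limma) 5 of the T cell markers were higher. The T cell markers summed to between 0.77 and 0.92 FPKM in the NC pigs and between 2.70 and 11.6 FPKM in the HFCF pigs. Among 7 endothelial, 4 skeletal muscle and 5 Schwann cell markers limma called 0, and at an unadjusted p under 0.05 there were 2 higher, 1 lower and 1 higher, respectively. The part of these cell types in the SLRP differences was not tested.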

How the data were processed

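Abdominal aorta RNA of 3 NC and 3 HFCF pigs was sequenced as paired-end reads. Per the submitters' processing notes, cutadapt 1.9 and HISAT2 were used, and per the methods the authors ran StringTie before FPKM per gene were deposited. The methods name an earlier genome build than the annotation used here for gene neighbours, so no coordinates are given. Absolute depth is not given in the sources used here. Relative depth was read from the steps between low FPKM values, and precision rests on 3 pigs per group.

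Entries of 0.0001 were read as 0. Genes with a mean of at least 0.1 FPKM were tested as log2(FPKM + 0.1), which understates changes of low genes, with limma 3.58.1 in R 4.3.3 (a single diet factor, trended eBayes, Benjamini-Hochberg over all tested genes). The fits were tested on simulated data with 15384 genes, of which 200 were changed, each by more than any member differed here. Of these 194 were recovered, with 13 false calls. Changes of the size seen in the members were not simulated. The members and lists were chosen with earlier results of these data known. The rule for named genes took all members, the called genes with the largest change in each list (up to 4 per direction), TGFB1, TLR2, TLR4, COL1A1, COL1A2, COL3A1, DSE and CHST14 whatever their values, and for each member the 3 genes with the smallest root mean square difference. B3GAT3, COL5A3, BMP1, SOX9, COL2A1, ACTA2, CENPP, CD14, KDR, MET and ERBB4 were named after their values were seen. The same holds for the genes at 0 and the other SLRP genes apart from ECM2. For 5 listed genes the row was found by identifier through a name table. Alternatives were other pseudocounts, filters and scalings, a replicate block, no variance trend and each library left out.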

Additional observations from a re-analysis of the deposited data

How the results depend on the processing

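Over 15 alternatives, LUM kept its direction and call in all 15, OMD in 14, and DCN, BGN, FMOD and PRELP were called in none. The replicate numbers did not pair the pigs (correlations of same-numbered deviations 0.021, -0.079 and -0.072). With a replicate block, ASPN lost its call (log2 fold change 0.97, adjusted p = 0.0615, limma), all calls fell to 2772, glycosaminoglycan assembly calls to 3 and protease calls to 2. ASPN also lost it after scaling by median ratios (0.61), TPM (0.71) or quantiles (0.83) and with eBayes without a trend (0.97). DCN, also below 0 without the third NC pig (-0.0058), turned to -0.094 with median-ratio scaling and -0.057 with quantile normalization. Collagen partner calls were 0 without a filter, with TPM and without a trend. In each of these the call lost was LOX. The summed SLRP level moved from -0.04 to -0.39 (log2) with median-ratio scaling. With libraries left out in turn, the log2 fold change ranged from 0.78 to 1.21 for ASPN, -0.45 to 0.033 for BGN, -0.093 to 0.60 for DCN, -0.45 to 0.090 for FMOD, 1.13 to 1.60 for OMD and 0.93 to 1.82 for OGN. Counts of calls ranged from 1 to 3 for the members, 2421 to 3596 for all genes, 2 to 4 for glycosaminoglycan assembly, 7 to 11 for receptors and ligands, 0 to 1 for collagen partners, 2 to 4 for proteases and 17 to 29 for cell type markers; the lowest counts for the members and all genes came without the first NC pig. The ratio to DCN (log2 difference), chosen after seeing the data for LUM and OGN, ranged from 1.37 to 2.15 for LUM and 0.94 to 1.22 for OGN. The share of called genes higher in the HFCF group was 78.7% as deposited, 50.8% with median-ratio scaling, 49.5% with quantile normalization and 59.3% with TPM. The cause of the lost calls was not tested. With 3 pigs per group, differences of the size seen for DCN, BGN, FMOD and PRELP were within the spread between pigs.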
